A study of Homo sapiens with 6 samples.

Results

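The transcription factor p53 raises the transcription of a broad set of genes when cells meet DNA damage or other stress. Its targets include genes that stop the cell cycle, genes that repair DNA, genes that start apoptosis and genes that feed back on p53 itself. In unstressed cells the ubiquitin ligase MDM2, itself a target, keeps p53 low, so the levels of the targets are often read as a measure of p53 activity. H460 is a non-small-cell lung cancer line known to keep a working p53 response, although expression values alone do not show the state of the protein.

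The members were 31 genes known as p53 targets, listed by name, and all 31 were found among the 57773 genes in the deposited values. HKlincR1 (AC093323.3), a long intergenic non-coding RNA, was depleted in H460 cells by transfection of 50 nM siRNA for 48 hours. The siHKlincR1 group held 3 biological replicates with 1 siRNA, siHKlincR1_2, and the siNT group held 3 biological replicates with a non-targeting siRNA. Cells of both groups were the same line in the same medium, and no DNA-damaging agent is named in the labels, so the comparison asks whether p53 target genes moved when HKlincR1 was lost. Because both groups were transfected, untransfected levels of the targets were not analysed here.

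Each library held 24980280 to 30521000 reads, worked back from the RPKM values (a read count divided by gene length and by library depth), and 89.9% to 91.1% of them lay on listed genes. HKlincR1 was at 3.62, 3.47 and 3.83 RPKM with siNT and at 0.563, 0.628 and 0.390 RPKM with siHKlincR1, and its mean fell by 85.5% (limma adjusted p = 0.00245, Benjamini-Hochberg). Of the epithelial markers, KRT8, KRT18 and KRT19 ranged from 28.1 to 88.5 RPKM, while EPCAM and CDH1, 2 of the 5 defining epithelial markers, were at or near 0. The leukocyte markers summed to at most 0.196 RPKM in any library and the endothelial markers found to at most 0.0212 RPKM. Of the fibroblast markers, COL3A1 was at 13.1 to 21.1 RPKM and higher with siHKlincR1, COL1A1 was at 0.419 to 1.23 RPKM and lower, and DCN was at or near 0; their part in the results was not tested.

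The siRNA and the places where its seed occurs in the members are shown first, as a description of sequence. The guide strand of siHKlincR1_2 is written 5′ to 3′ with its seed, bases 2 to 8, in capitals, and the strand with the sequence of HKlincR1 carries the complementary bases in capitals.
guide strand: aAGCACACgaguauacuuc
HKlincR1-like strand: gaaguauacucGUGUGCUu

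The complement of the seed, GTGTGCT, was searched on the transcript strand in the 3′ UTR of the Ensembl canonical transcript. It occurred in 5 of 30 members with such a transcript (16.7%), against 14.0% of the 10769 tested protein-coding genes with a 3′ UTR. The copies in the members that were tested are given on the strand of the gene, with the match in capitals and coordinates on GRCh37. The TRIAP1 copy lies at bases 211 to 217 of a 3′ UTR of 911 bases (chr12:120882453-120882475), that of MDM2 at chr12:69237153-69237175, that of CYFIP2 at chr5:156820239-156820261 and that of TIGAR at chr12:4464471-4464493.
TRIAP1: caggaactGTGTGCTaaaattga
MDM2: gctgatggGTGTGCTaattacac
CYFIP2: agggcagtGTGTGCTttttcttt
TIGAR: tttgtggtGTGTGCTctcaggcc

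The p53 consensus is a pair of adjacent 10-base elements, each with a core of C, A or T, A or T, and G. It was searched within 2500 bases on each side of the start of the canonical transcript, on both strands at once since the consensus is its own reverse complement, with both cores intact and at most 2 mismatches elsewhere. Such a match was found at 11 of 30 members (36.7%) and at 2.25% of the 10818 tested protein-coding genes. The members are known targets, so this share describes the list and was not tested. Matches are shown, with the cores in capitals, for CDKN1A and GADD45A, whose values in every library follow, for PLK2 and ZMAT3, which had 0 mismatches, and for PMAIP1 and CCNG1 as examples nearer to the start. The CDKN1A match (chr6:36644226-36644245) lies 2255 bases upstream of the start and the PLK2 match (chr5:57758101-57758120) 2197 bases upstream. The GADD45A match (chr1:68152458-68152477) lies in intron 3, 1583 bases downstream, and the ZMAT3 match (chr3:178787976-178787995) in intron 1, 1611 bases downstream. The PMAIP1 match (chr18:57566781-57566800) lies 437 bases upstream, and the nearer of the 2 CCNG1 matches (chr5:162864932-162864951) lies in intron 1, 340 bases downstream.
CDKN1A: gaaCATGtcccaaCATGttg
PLK2: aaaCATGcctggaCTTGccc
GADD45A: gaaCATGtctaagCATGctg
ZMAT3: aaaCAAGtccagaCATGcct
PMAIP1: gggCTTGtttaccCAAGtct
CCNG1: gcaCAAGcccaggCTAGtcc

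PLK2 and ZMAT3 matched with 0 mismatches, GADD45A and the nearer CCNG1 copy with 1, and CDKN1A and PMAIP1 with 2. AEN, BTG2, SPATA18, RRM2B and TNFRSF10B also held a match, and no match was found in the windows of MDM2, BAX, BBC3 or TRIAP1. The search covers only these windows and this spacing, so it says nothing of p53 binding elsewhere.

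**Figure D1:**
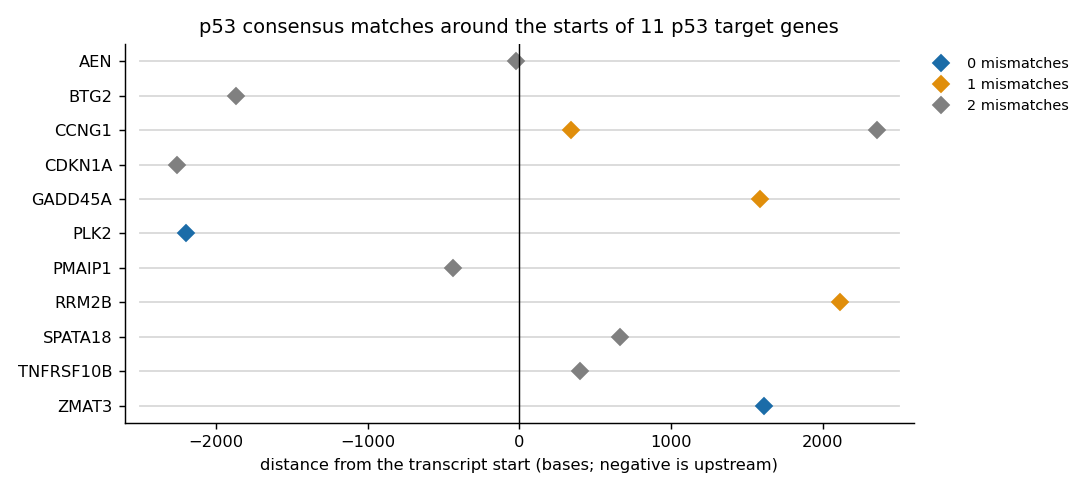
Position of each match to the p53 consensus (diamonds, coloured by mismatches outside the cores) against the distance from the canonical transcript start in bases, negative being upstream, for the 11 members with a match; grey lines span the searched window. The matches of PLK2 and ZMAT3 have 0 mismatches, and CCNG1 is the member with 2 matches.

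The targets were well expressed in the siNT libraries. Their mean levels with siNT ranged from 0.173 RPKM for SPATA18, a protein of mitochondrial quality control, to 58.3 RPKM for PLK2, a polo-like kinase induced by stress. The median member was at 10.7 RPKM against 5.05 RPKM for all tested genes, and 23 of 31 members were above that level. PLK2 was followed by CCNG1 at 45.9 ± 4.76 RPKM, CDKN1A at 37.3 ± 3.49 RPKM and TNFRSF10B at 36.1 ± 2.61 RPKM (SD, n = 3), and the siNT libraries of CDKN1A and TNFRSF10B overlapped. TRIAP1 at 21.9 ± 3.64 RPKM and MDM2 at 21.2 ± 0.273 RPKM were also within each other's spread. The lowest members after SPATA18 were TP53INP1, ZMAT3, SESN1, CYFIP2 and BBC3, all under 2 RPKM.

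**Figure D2:**
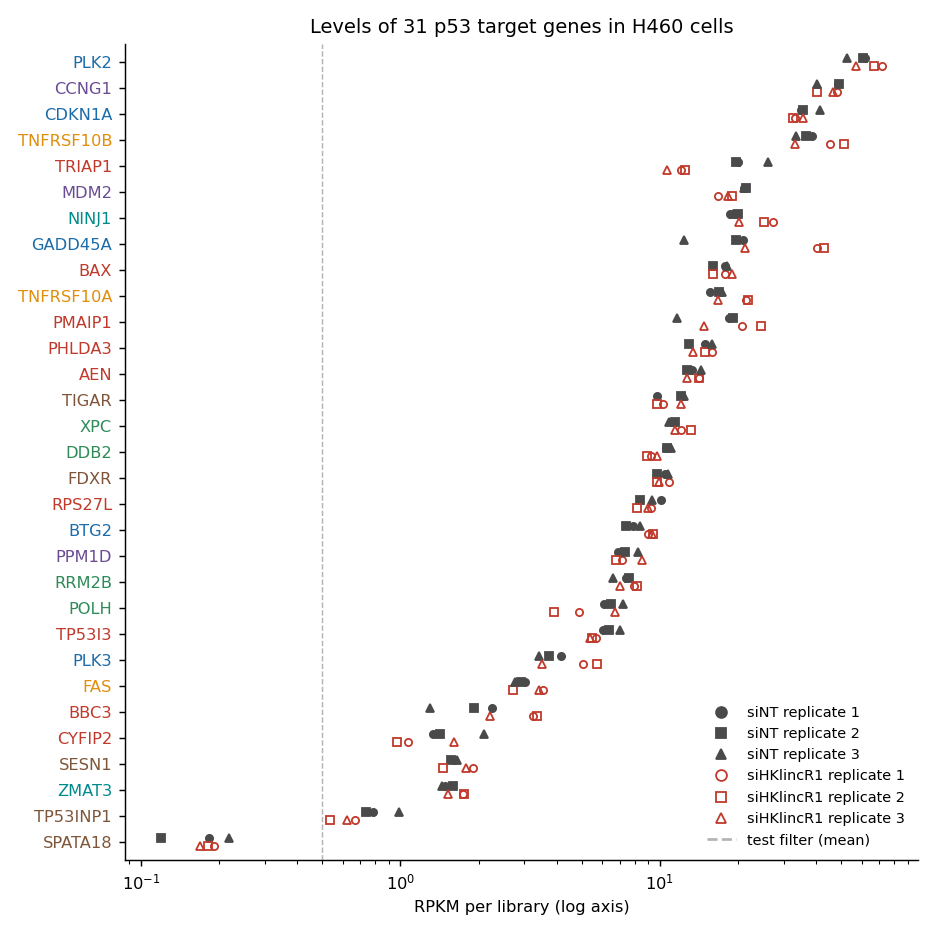
RPKM of the 31 p53 target genes in each of the 6 libraries on a log axis, in order of their mean with siNT, filled symbols for siNT and open symbols for siHKlincR1, with circles, squares and triangles for replicates 1, 2 and 3. Gene names are coloured by role; the dashed line at 0.5 RPKM marks the mean level needed for the test, which SPATA18 alone is below.

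SPATA18 was below the 0.5 RPKM needed for the test, with 18 to 27 reads per library, and the remaining 30 members were tested. Of these, 17 were higher and 13 lower with siHKlincR1, the median log2 fold change was 0.02, and the median over all 15451 tested genes was 0.00. Log2 fold changes are on the log2(RPKM + 0.1) scale throughout, siHKlincR1 over siNT. A gene was called at a limma adjusted p under 0.05 with a fold change above 1.5, which 0.362% of all tested genes met (0.00647% higher and 0.356% lower). By this rule 0 members rose and 1 fell, TRIAP1. With the replicate number as a block, which pairs each siHKlincR1 library with the siNT library of the same number, 1.32% of all tested genes were called (0.511% higher and 0.809% lower), and 2 members rose (GADD45A and BBC3) while TRIAP1 fell. An unadjusted p under 0.05 was reached by 8 members in the fit without the block, beside 16.2% of all tested genes.

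The 3 siNT and 3 siHKlincR1 libraries did not overlap for 9 of the 30 tested members, 4 higher and 5 lower, beside 22.0% of all tested genes (10.1% higher and 11.9% lower). Those higher were GADD45A, BTG2, XPC and NINJ1, and those lower were MDM2, TRIAP1, TP53I3, DDB2 and TP53INP1. With 3 libraries against 3, an exact two-sided permutation test of a single gene cannot give a p under 0.10. Of the 30 tested members, 24 had a log2 fold change of at most 0.32 in either direction. The 95% interval of 20 lay wholly within a 1.5-fold change in either direction. The shares of all tested genes within these limits are not given here. The median absolute log2 fold change was 0.183 for the members and 0.143 for all tested genes.

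**Figure D3:**
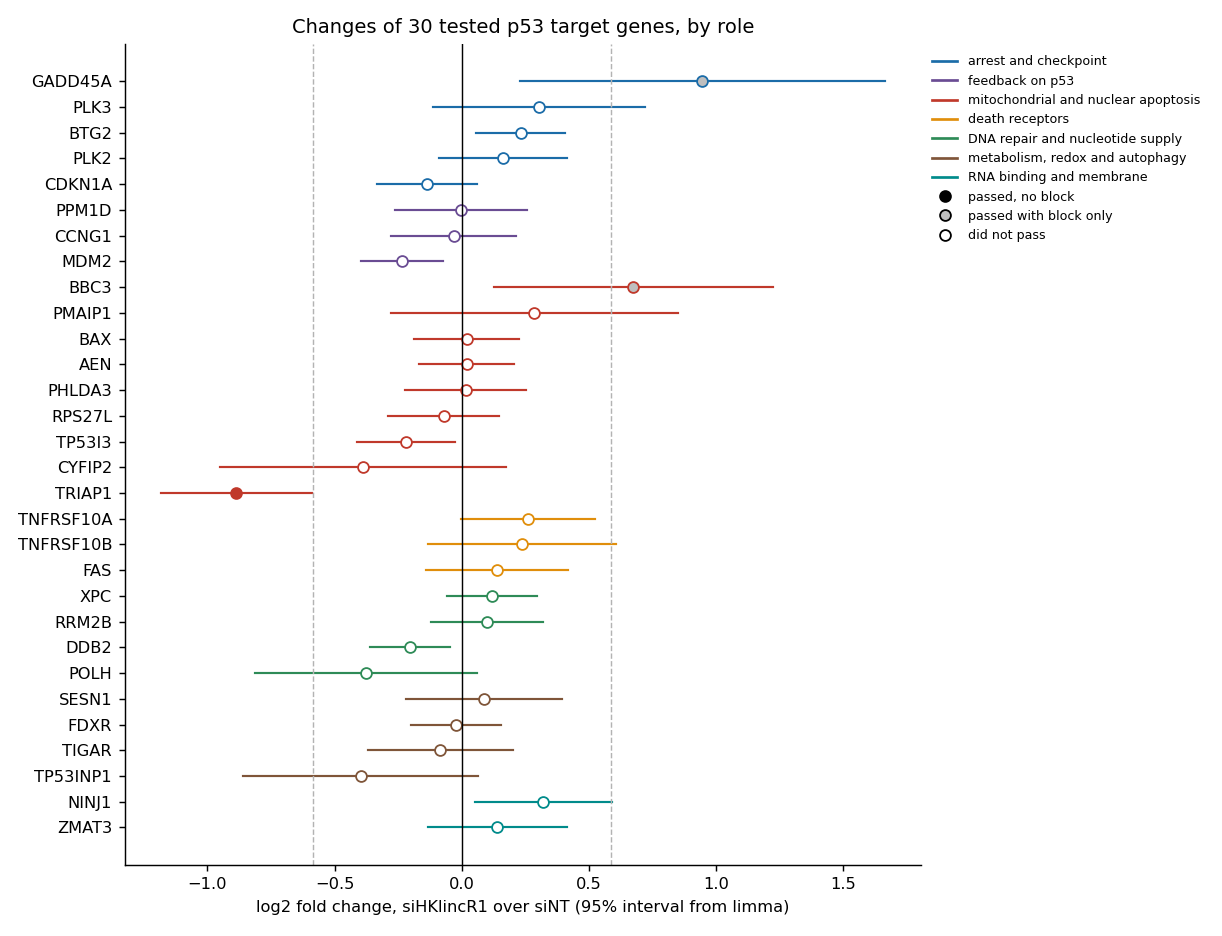
Log2 fold change (siHKlincR1 over siNT, log2(RPKM + 0.1)) of the 30 tested p53 target genes with the 95% interval from limma without the block, grouped and coloured by role. Dashed lines mark a 1.5-fold change; TRIAP1 (filled) passed the test, GADD45A and BBC3 (grey) passed with the replicate block only, and open points did not pass.

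The arrest and checkpoint genes were led by GADD45A, whose product binds stress kinases and restrains the cell cycle (chromosome 1, 68150884 to 68154017). GADD45A was at 20.9, 19.6 and 12.4 RPKM with siNT and at 40.2, 42.9 and 21.2 RPKM with siHKlincR1. The groups did not overlap, although the lowest siHKlincR1 library, replicate 3, lay only just above the highest siNT library, and replicate 3 was the lowest in both groups. The mean went from 17.6 ± 4.56 to 34.8 ± 11.8 RPKM (SD, n = 3), which gave a log2 fold change of 0.95 (standard error 0.30). It did not pass limma without the block (adjusted p = 0.237) and passed with the block (adjusted p = 0.0170), with differences within pairs of 0.94, 1.13 and 0.77. Without the third library of both groups, a fit added after seeing the data, the limma adjusted p was 0.0151. Without the third siHKlincR1 library alone it was 0.0317 at a log2 fold change of 1.27. Leaving out any other single library gave no pass (limma adjusted p from 0.376 to 0.557), and without siNT replicate 3 the log2 fold change was 0.71.

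CDKN1A encodes p21, the inhibitor of cyclin-dependent kinases through which p53 halts the cell cycle (chromosome 6, 36644237 to 36655114). CDKN1A was at 34.9, 35.7 and 41.3 RPKM with siNT and at 33.3, 32.5 and 35.7 RPKM with siHKlincR1. The groups overlapped, and every siHKlincR1 library was below the siNT library of its number. The log2 fold change was -0.14, with a 95% interval from -0.33 to 0.06 (limma adjusted p = 0.436, and 0.176 with the block), so an increase of more than 0.06 on this scale lay outside the interval.

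BTG2, which restrains proliferation and promotes the shortening of poly(A) tails, was higher without overlap (7.87 ± 0.505 against 9.25 ± 0.216 RPKM, log2 fold change 0.23, limma adjusted p = 0.236) and did not pass. The stress-induced kinases PLK2 and PLK3 had log2 fold changes of 0.16 and 0.30, with overlapping groups. Of the 5 arrest and checkpoint genes 4 were above 0, and 0 were called without the block and 1, GADD45A, with it.

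Of the GADD45A paralogs, GADD45B averaged 8.04 ± 0.435 RPKM with siNT against 11.7 ± 2.13 RPKM after depletion, without overlap (log2 fold change 0.52, limma adjusted p = 0.185, and 0.0642 with the block). GADD45G, at under 1 RPKM in every library, had a log2 fold change of -0.11. Neither passed the test.

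The 3 genes that feed back on p53 were at or below their siNT levels. MDM2, the ligase that marks p53 for degradation (chromosome 12, 69201957 to 69239324), was at 20.99, 21.51 and 21.11 RPKM with siNT and at 16.8, 18.9 and 18.4 RPKM with siHKlincR1. The groups did not overlap and MDM2 was lower in all 3 pairs. The mean went from 21.2 ± 0.273 to 18.0 ± 1.11 RPKM (SD, n = 3). The log2 fold change of -0.24 (95% interval -0.40 to -0.07) did not pass limma without the block (adjusted p = 0.212) or with it (adjusted p = 0.0823). In limma-voom on reads with the block its adjusted p was 0.0293 at under 1.5-fold, so MDM2 was not called there. CYFIP2, which was lower (limma-voom adjusted p = 0.0216), was also under 0.05 in that fit without a call. So were PMAIP1 and NINJ1, which were higher (limma-voom adjusted p = 0.0341 and 0.0464). That fit called 2.74% of all tested genes by the rule with the fold limit. The share under 0.05 at any fold is not given here. PPM1D, a phosphatase that switches off p53 signalling, had a log2 fold change of -0.00 with a 95% interval from -0.26 to 0.26. CCNG1, a cyclin that works with phosphatase PP2A on MDM2, had one of -0.03 with an interval from -0.28 to 0.21, and the sign of both changed when single libraries were left out.

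TRIAP1, a small mitochondrial protein that inhibits apoptosis (chromosome 12, 120881767 to 120884187), fell most among the members. TRIAP1 was at 19.9, 19.6 and 26.1 RPKM with siNT (798, 863 and 939 reads) and at 12.0, 12.5 and 10.6 RPKM with siHKlincR1 (494, 520 and 458 reads). In these bulk libraries a lower level in every cell and fewer cells with the transcript cannot be told apart. All siHKlincR1 libraries lay well below all siNT libraries, and the third siNT library was the highest. The mean went from 21.9 ± 3.64 to 11.7 ± 0.971 RPKM (SD, n = 3), which gave a log2 fold change of -0.89 (standard error 0.13, limma adjusted p = 0.0457, and 0.0461 with the block). Differences within pairs were -0.72, -0.65 and -1.29.

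The TRIAP1 call was close to the threshold and was lost when any library other than the third siHKlincR1 library was left out (limma adjusted p from 0.0838 to 0.219), while the log2 fold change stayed between -0.96 and -0.75. TRIAP1 holds the seed match shown above. Among all tested protein-coding genes with a seed match 2.78% were called, and among those without one 0.119%. HKlincR1, the intended target, is counted among those with a match, with the lowest log2 fold change of that set (-2.59). The part of the seed match in the fall of TRIAP1 was not tested.

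BBC3 encodes PUMA, a BH3-only protein that triggers the mitochondrial pathway of apoptosis (chromosome 19, 47724079 to 47736023). BBC3 was at 2.24, 1.92 and 1.30 RPKM with siNT and at 3.25, 3.36 and 2.22 RPKM with siHKlincR1. The groups overlapped by a narrow margin, at siNT replicate 1 and siHKlincR1 replicate 3, while all 3 pairs were higher, by 0.51, 0.78 and 0.73. The mean went from 1.82 ± 0.481 to 2.94 ± 0.630 RPKM (SD, n = 3), which gave a log2 fold change of 0.67 (standard error 0.23). It did not pass limma without the block (adjusted p = 0.257) and passed with the block (adjusted p = 0.0444). It also passed without the third library of both groups (limma adjusted p = 0.0432), a fit added after seeing the data. BBC3 passed in none of the 6 fits that left out a single library (limma adjusted p from 0.0647 to 0.568), where its log2 fold change ranged from 0.46 without siNT replicate 3 to 0.86 without siHKlincR1 replicate 3.

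BAX, the pore-forming protein of the mitochondrial outer membrane (chromosome 19, 49458072 to 49465055), was at 17.8, 16.0 and 18.1 RPKM with siNT and at 17.8, 16.0 and 18.9 RPKM with siHKlincR1. The groups overlapped almost completely. The log2 fold change was 0.02 with a 95% interval from -0.19 to 0.23 (limma adjusted p = 0.925).

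PMAIP1, which encodes the BH3-only protein NOXA, went from 16.4 ± 4.13 to 19.95 ± 4.86 RPKM with overlapping groups (log2 fold change 0.29, limma adjusted p = 0.564, and 0.0746 with the block), and replicate 3 was the lowest in both groups. TP53I3, a quinone oxidoreductase, was lower without overlap (6.45 ± 0.509 against 5.52 ± 0.151 RPKM, log2 fold change -0.22, limma adjusted p = 0.273). The nuclease AEN and the AKT repressor PHLDA3 had log2 fold changes of 0.02 and 0.01. PHLDA3 shares 598 exon bases with another gene model on the same strand, at a mean of 2.65 RPKM, which counting by strand cannot separate.

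RPS27L, a ribosomal protein paralog, had a log2 fold change of -0.07, and CYFIP2, a subunit of the WAVE actin regulatory complex, one of -0.39 with overlapping groups. Of the 9 genes of mitochondrial and nuclear apoptosis, 5 were above 0 and 4 below, and the called members were TRIAP1 without the block, and TRIAP1 and BBC3 with it. RPS27L has a paralog, RPS27, and CYFIP2 shares 62 exon bases with ADAM19 on the opposite strand, so some reads could be split between paralogs or neighbours. How alike the RPS27L and RPS27 transcripts are was not examined.

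**Figure D4:**
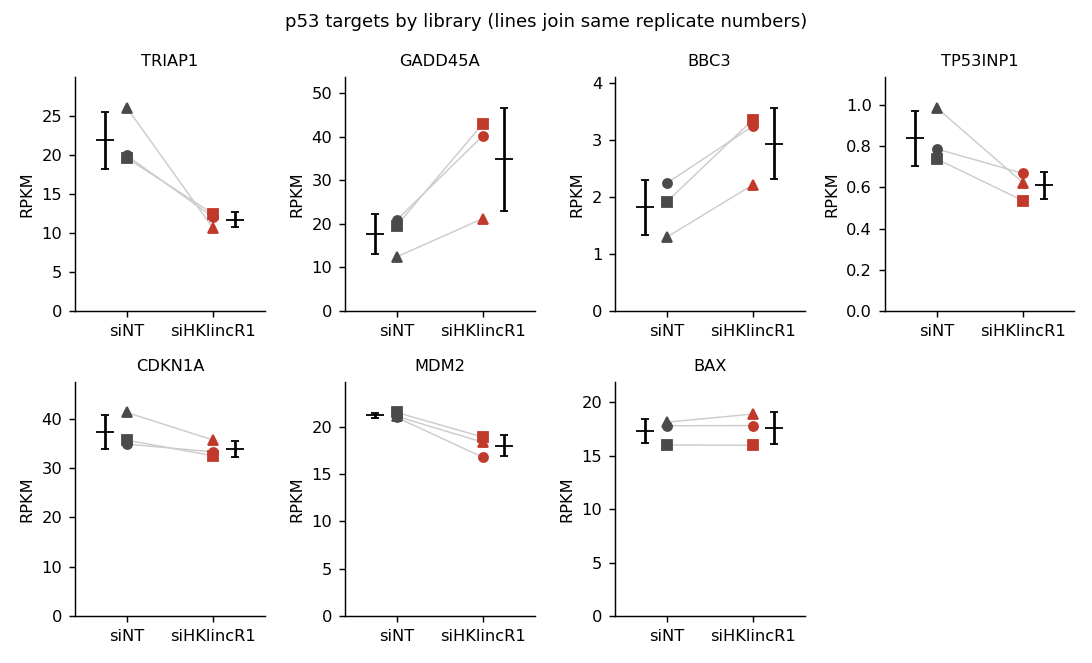
RPKM in each library of the 7 members given in full, siNT in grey and siHKlincR1 in red, with circles, squares and triangles for replicates 1, 2 and 3, lines joining equal replicate numbers and bars for mean ± SD (n = 3). All 3 lines go down in TRIAP1, TP53INP1, CDKN1A and MDM2 and up in GADD45A and BBC3.

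The death receptors FAS, TNFRSF10A and TNFRSF10B, which carry signals of Fas ligand and TRAIL to caspases, had log2 fold changes of 0.14, 0.26 and 0.24. All 3 were above 0, their groups overlapped and none passed either fit. TNFRSF10B, the receptor with the highest level, went from 36.1 ± 2.61 to 43.2 ± 9.23 RPKM (SD, n = 3), with pair 3 level and pairs 1 and 2 higher. FAS shares 380 exon bases with ACTA2, TNFRSF10B shares 377 with RHOBTB2 and TNFRSF10A shares 266 with TNFRSF10A-DT, each on the opposite strand.

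The DNA repair and nucleotide genes were divided. XPC, which recognises helix distortions in nucleotide excision repair, was higher without overlap (11.2 ± 0.326 against 12.2 ± 0.873 RPKM, log2 fold change 0.12). DDB2, which recognises ultraviolet lesions in the same pathway, was lower without overlap (10.7 ± 0.263 against 9.29 ± 0.406 RPKM, log2 fold change -0.20, limma adjusted p = 0.243). RRM2B, a subunit of ribonucleotide reductase, had a log2 fold change of 0.10, and POLH, a translesion polymerase, one of -0.38 with overlapping groups. Of these 4 genes 0 passed either fit, and POLH shares 261 exon bases with the more highly expressed GTPBP2 on the opposite strand.

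Among the genes of metabolism and autophagy, TP53INP1, which promotes autophagy and p53 phosphorylation, was the member with groups that did not overlap. TP53INP1 was at 0.786, 0.738 and 0.986 RPKM with siNT and at 0.668, 0.535 and 0.623 RPKM with siHKlincR1, that is, at 88 to 140 reads. It was lower in all 3 pairs, with a log2 fold change of -0.40 (standard error 0.20, limma adjusted p = 0.352, and 0.251 with the block), and did not pass. Its paralog TP53INP2 was at 1.93 ± 0.141 and 1.14 ± 0.355 RPKM without overlap (log2 fold change -0.75, limma adjusted p = 0.198), and the CCNG1 paralog CCNG2 at 2.15 ± 0.660 and 1.17 ± 0.220 RPKM (-0.79, limma adjusted p = 0.229).

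SESN1, a stress-induced inhibitor of mTORC1, the glycolytic regulator TIGAR and FDXR, which passes electrons to mitochondrial ferredoxin, had log2 fold changes of 0.09, -0.08 and -0.02. SPATA18 was at 0.119 to 0.219 RPKM in the siNT libraries and 0.169 to 0.192 RPKM in the siHKlincR1 libraries. Of the other members, NINJ1, which ruptures the plasma membrane of dying cells, was higher without overlap (19.2 ± 0.692 against 24.2 ± 3.68 RPKM, log2 fold change 0.32, limma adjusted p = 0.266). ZMAT3, an RNA-binding regulator of splicing, had a log2 fold change of 0.14.

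Members with a p53 consensus match and members without one were set beside each other. The 10 tested members with a match had a median log2 fold change of 0.15, with 8 above 0, and the 19 without had a median of -0.02. GADD45A was the called member in the first set, with the block only, and BBC3 and TRIAP1 were those in the second. Over all 243 tested genes with a match the median was 0.00, with 125 above 0. With the block, 1.23% of these genes were called, beside 1.52% of the tested protein-coding genes without a match. The 4 tested members with a seed match in the 3′ UTR (TRIAP1, CYFIP2, MDM2 and TIGAR) were all below 0, with a median of -0.31, and the 25 without had a median of 0.09. Over all tested genes the medians were -0.08 with a seed match and -0.01 without, and 973 of the 1513 with a match were below 0.

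Genes that control p53 were examined next, in a list on p53 signalling of 20 genes, and 0 were called in either fit. MDM4, which binds and inhibits p53, was higher without overlap (8.15 ± 0.719 against 11.1 ± 1.81 RPKM, log2 fold change 0.43, limma adjusted p = 0.230, and 0.0513 with the block). HIPK2, a kinase that phosphorylates p53, was lower (13.0 ± 0.620 against 9.63 ± 0.994 RPKM, log2 fold change -0.44), with a limma adjusted p of 0.125, and of 0.0444 with the block at under 1.5-fold.

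PPP1R13L, an inhibitor of p53 that binds it directly, had a log2 fold change of 0.37. Of the 20 genes in this list 17 were tested, of which 12 were higher and 5 lower. CDKN2A, whose ARF product blocks MDM2, was at 0 in 5 of 6 libraries, and the p53 relatives TP63 and TP73 were near 0. RNA levels do not show the amount or activity of the p53 protein.

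A second list held 30 other genes known as p53 targets, of which 25 were tested, 13 were higher, 12 lower and 0 called in either fit. SESN2, a paralog of SESN1, was among the genes with the largest differences (13.1 ± 6.58 against 25.8 ± 5.82 RPKM, log2 fold change 1.12, limma adjusted p = 0.286, and 0.0676 with the block). ATF3, a transcription factor, came next among those named, at 0.58 (limma adjusted p = 0.356, and 0.0554 with the block). Without siNT replicate 3 the log2 fold change was 0.58 for SESN2 and 0.26 for ATF3. In the other direction PERP, a membrane protein of apoptosis and cell adhesion named after its values were seen, was at 52.4, 52.0 and 56.4 RPKM with siNT and at 38.0, 38.3 and 43.1 RPKM with siHKlincR1. The groups of PERP did not overlap, and its log2 fold change of -0.43 had a limma adjusted p of 0.0866, and of 0.0274 with the block at under 1.5-fold. PERP was the one gene of the list under 0.05 with the block at any fold, beside 452 of all 15451 tested genes. SESN2 and ATF3 are also known targets of ATF4, the transcription factor of the amino acid and endoplasmic reticulum stress response, and belong to the list of ATF4 genes too.

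The 12 genes listed as lowered through p21 and the DREAM repressor complex, among them cell cycle genes, were all below 0, as were 7689 of all 15451 tested genes. Their median log2 fold change was -0.30, and 0 of the 12 were called in either fit. E2F1 (-0.42, limma adjusted p = 0.268, and 0.0444 with the block at under 1.5-fold) and BIRC5 (-0.39) had the largest differences. CDKN1A, which encodes the p21 of this route, had a log2 fold change of -0.14, as given above. Whether this route had a part in the differences was not tested.

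GADD45A and BBC3 are also known to respond to stresses that act through ATF4, so the ATF4 list was set beside them. All 10 of its genes were above 0, as were 7762 of all 15451 tested genes. DDIT4, named after its values were seen, was above 0 through pair 3 alone, with differences within pairs of -0.10, -0.03 and 0.73. The median log2 fold change of the 10 was 0.75, and 0 of them were called without the block and 3 with it. CHAC1, a glutathione-degrading enzyme, was at 26.1, 27.3 and 2.11 RPKM with siNT and at 31.9, 34.3 and 29.9 RPKM with siHKlincR1 (log2 fold change 1.46, limma adjusted p = 0.439, and 0.266 with the block). Its difference rested on siNT replicate 3, without which the log2 fold change was 0.26. ASNS, asparagine synthetase, rose in the fit with the block, from 33.8 ± 16.7 to 81.5 ± 36.7 RPKM (log2 fold change 1.30, limma adjusted p = 0.298, and 0.0124 with the block), and without siNT replicate 3 its log2 fold change was 0.78. DDIT3 and TRIB3, named after their values were seen, were also called with the block, DDIT3 at a log2 fold change of 0.96 and TRIB3 at 0.64 (limma adjusted p = 0.0138 for each).

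The summed level of the 10 ATF4 genes was 958, 954 and 577 RPKM in siNT replicates 1, 2 and 3 and 1068, 1135 and 945 RPKM in the siHKlincR1 replicates, so the third library was the lowest in both groups. The same library was the lowest in both groups for 9 of 30 members, among them GADD45A, BBC3, PMAIP1 and TNFRSF10B, and for 24.0% of all tested genes. Whether the p53 targets and the ATF4 genes moved through a shared pathway was not tested.

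**Figure D5:**
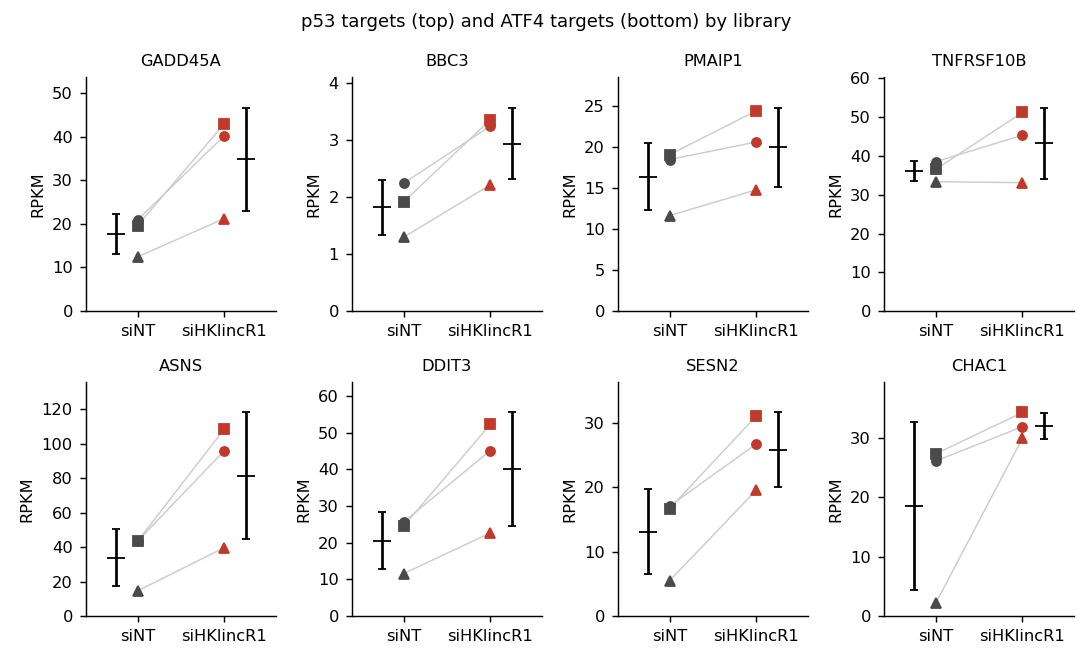
RPKM in each library of 4 p53 targets (top row) and 4 genes of the ATF4 list (bottom row), siNT in grey and siHKlincR1 in red, with circles, squares and triangles for replicates 1, 2 and 3, lines joining equal replicate numbers and bars for mean ± SD (n = 3). Replicate 3 is the lowest library of both groups in all 8 genes, and the lines go up in all pairs except pair 3 of TNFRSF10B. The 4 targets shown are among the 9 of 30 members with replicate 3 lowest in both groups, beside 24.0% of all tested genes, so this pattern describes the choice. DDIT4 of the ATF4 list, not shown, had its highest siHKlincR1 level in replicate 3.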

How the data were processed

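RNA from 6 H460 libraries (3 siNT, 3 siHKlincR1) was sequenced by the authors as strand-specific polyA libraries. Reads were counted by the authors on Ensembl v74 gene models with Rsubread (featureCounts in the submitters' processing notes, with CASAVA 1.8.2 and builds hg19 and GRCh37), tested with edgeR, and deposited as RPKM per gene. Neither the aligner nor whether counting used strand is given in the sources used here, so overlapping genes on opposite strands are uncertain. Exon bases shared on the same strand, as in PHLDA3, are uncertain either way.

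Tests were run on log2(RPKM + 0.1) in limma 3.58.1 (R 4.3.3, mean-variance trend) over the 15451 genes averaging 0.5 RPKM or more, with p-values adjusted by Benjamini-Hochberg. A call needed an adjusted p under 0.05 and a fold above 1.5. Limma on the log scale was planned in place of a count test because the deposited values are RPKM. Reads were worked back from the unrounded RPKM, and 100% of the nonzero values came out whole within 0.01 read. These reads also allowed a test on counts, and they entered limma-voom as an alternative. The replicate numbers come from the sample labels. The deviations of same-numbered libraries from their group means correlated at 0.142, 0.137 and 0.266. Such deviations cancel out within a group, so the negative mean for different numbers (-0.0890) follows from these values and adds no evidence. Replicate 1 of siNT also correlated at 0.113 with replicate 2 of siHKlincR1, so mainly replicate 3 stood apart. The block takes equal numbers as pairs, an assumption that these correlations cannot settle. In simulated data, the limma step recovered 186 of 196 genes given a log2 change of 1.5 among 15296 and called 7 unchanged genes. The simulation used a single dispersion for all genes and no replicate effect. Changes of the tested members ran from -0.89 to 0.95, so it does not show how often changes of their size would be called.

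Gene names, canonical transcripts and sequence come from GENCODE v44 on GRCh37, in which 55538 of 57773 identifiers were found. FAS has no canonical transcript there and was left out of the searches. The marker PECAM1 and the paralog CYFIP1 were not matched. The members and lists were chosen with earlier results of these data known. Values in every library are given for members past an adjusted p under 0.05 with or without the block, members without overlap and with a log2 fold change over 0.32, and CDKN1A, MDM2 and BAX. From each other list, up to 3 genes with the largest change are named, with MDM4, and paralogs beside their member; some genes that meet these rules are not reported here. Alternatives changed the pseudocount, filter, scaling, variance model, thresholds, block and libraries. Leaving out the third library of both groups, and voom with the block, were added after seeing the data.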

Additional observations from a re-analysis of the deposited data

How the results depend on the processing

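The count of called members, 1 (TRIAP1), was 0 with no filter on low RPKM and 0 without the variance trend, where the limma adjusted p of TRIAP1 was 0.0878 and 0.111. With the replicate block it was 3 (2 higher, 1 lower), and with voom and the replicate block 3, where 1.32% and 2.74% of all tested genes were called. Without replicate 3 of both groups it was 3. Leaving out single libraries gave 0 to 2, and 2 was reached without the third siHKlincR1 library, where GADD45A was called. For the fits that left out libraries the share of all tested genes called is not given here, so these counts have no background beside them. The block changed no other call among the members. The median log2 fold change of the members stayed between 0.00 and 0.07 in all 17 alternatives, and HKlincR1 stayed called in all 17 (-2.80 to -1.61). Members with a p53 consensus match numbered 5 with up to 1 mismatch, 2 with 0 mismatches and 5 within 1000 bases. The sign turned for 6 members near 0 when single libraries were left out: CCNG1 (from -0.121 to 0.0461), BAX (-0.0361 to 0.0855), AEN (-0.0214 to 0.0690), PHLDA3 (-0.0665 to 0.0816), PPM1D (-0.0973 to 0.0669) and FDXR (-0.0687 to 0.00638). Without replicate 3 of both groups BAX was at -0.000827 and FDXR at 0.0227. The cause of these shifts was not tested. TP53INP1 was not tested at a filter of 1 RPKM. With 3 libraries a group and 1 siRNA, effects of siHKlincR1_2 apart from HKlincR1 cannot be told apart from the depletion. TP53INP1, BBC3 and SPATA18 rest on 18 to 309 reads per library.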
